A study of Mus musculus with 4 samples.

Results

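The genes described here encode the nuclear part of the oxidative phosphorylation machinery, which is the respiratory chain and the ATP synthase of the inner mitochondrial membrane. They were taken by name: every probe set with exactly 1 annotated symbol beginning with Nduf followed by a, b, c, s or v, with Cox4 to Cox8, with Uqcr or with Atp5, or equal to Sdha, Sdhb, Sdhc or Sdhd. This gave 114 probe sets and, with the brightest probe set kept for each gene, 89 genes of the 19938 genes on the array. Complexes were assigned by the start of the symbol, so Ndufa4, now placed in complex IV, and its paralogue Ndufa4l2 were counted in complex I. By complex there were 36 genes of complex I, 4 of complex II, 8 of complex III, 17 of complex IV and 17 of complex V. The other 7 were Ndufaf genes, which carry the Nduf name but encode assembly factors and not subunits. A further 6 probe sets matched the names but carried several symbols and were left out. Ndufb4 and Cox7c were not analysed here.

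The samples were cultures of ATDC5, a chondroprogenitor line of mouse teratocarcinoma origin that forms cartilage nodules in culture. In the day 15 group the cells had been given insulin, transferrin and selenite for 15 days, and the day 0 group was the undifferentiated cells before that supplement. Both groups grew in the same serum-containing medium with ascorbic acid, and each had 2 samples, with the total RNA of each hybridised to 1 whole-transcript array. No group was kept for 15 days without the supplement, so time in culture, the supplement and differentiation cannot be told apart.

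Electrons from NADH enter the chain at complex I and those from succinate at complex II. They pass through coenzyme Q to complex III, through cytochrome c to complex IV and there to oxygen. Complexes I, III and IV pump protons, and complex V uses the gradient to make ATP. Most subunits are encoded in the nucleus, a few in mitochondrial DNA. Growth plate chondrocytes live with little oxygen and are known for a high rate of glycolysis.

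Of 11 chondrocyte markers 5 rose at day 15, Col2a1, Acan, Matn1, Hapln1 and Col10a1, and none fell. Of 3 osteoblast markers Ibsp, which encodes bone sialoprotein, rose too, by 5.36 log2 (limma adjusted p = 0.000606). Sp7 and Dmp1 differed by 0.81 and 0.14 log2 and were not called (limma adjusted p = 0.436 and 0.986). The summed intensity of the 3 markers was 15401 and 18479 at day 15, against 1983 and 2985 at day 0. Most of the day 15 sum was Ibsp, at 13.66 and 13.73 log2 intensity. The part of the osteoblast markers in the results was not tested. Replicate 1 of both days stood apart by macrophage markers: 6 of 10 were over 1 log2 higher in replicate 1 than in replicate 2 on both days. The summed intensity of the 10 markers was 11074 in day 15 replicate 1 and 3908 in day 15 replicate 2, and 10286 in day 0 replicate 1 and 2312 in day 0 replicate 2. Values within each replicate number are therefore given beside the results below. Summed markers of skeletal muscle, the tissue of several complex IV isoforms, were 2383 and 2227 at day 15, against 2698 and 2246 at day 0. Separate cultures are not stated for the 2 samples of a day, so each p-value reflects the spread among these arrays alone, and that spread may be technical. Precision is limited by the number of arrays.

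Promoters of these genes are known for sites of NRF1 and of ETS factors such as GABP, which are activators of nuclear genes for mitochondrial proteins. The 250 bases before the start of the gene, from RefSeq on GRCm38.p6, were found for 73 of the 89 genes, in 78 windows. The NRF1 motif, spelled GCGCA, any base, GCGC and searched on both strands, was in 17.9% of these windows, in 5.18% of the windows of all protein-coding genes and in 3.74% of those of all genes. The ETS motif, spelled CCGGAAG and searched on both strands, was in 16.7% of the members' windows, 8.98% of protein-coding windows and 6.91% of all windows. In the windows shown no match of one motif overlapped a match of the other. The members' windows held a median of 14.5 CpG dinucleotides, against 10 in protein-coding windows and 6 in those of all genes, and the part of this in the shares was not tested. Genes with both motifs were Sdhd of complex II, Cox6a1 of complex IV and Atp5h of complex V, and their windows are shown with the muscle isoform gene Cox8b, which had neither. Each reads 5′ to 3′ on the gene's strand, with motif matches in capitals.
Sdhd, chr9:50603850-50604099, minus strand: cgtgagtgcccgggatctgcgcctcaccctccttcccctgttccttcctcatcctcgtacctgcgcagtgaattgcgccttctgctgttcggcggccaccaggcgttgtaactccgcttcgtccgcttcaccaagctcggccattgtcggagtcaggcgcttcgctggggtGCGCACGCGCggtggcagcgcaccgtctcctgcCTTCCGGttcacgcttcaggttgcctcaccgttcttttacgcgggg
Cox6a1, chr5:115348959-115349208, minus strand: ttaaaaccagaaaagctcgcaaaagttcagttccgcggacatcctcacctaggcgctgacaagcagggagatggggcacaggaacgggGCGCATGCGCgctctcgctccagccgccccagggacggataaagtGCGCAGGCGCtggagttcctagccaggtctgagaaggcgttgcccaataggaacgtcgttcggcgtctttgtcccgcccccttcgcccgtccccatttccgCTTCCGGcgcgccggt
Atp5h, chr11:115419920-115420169, minus strand: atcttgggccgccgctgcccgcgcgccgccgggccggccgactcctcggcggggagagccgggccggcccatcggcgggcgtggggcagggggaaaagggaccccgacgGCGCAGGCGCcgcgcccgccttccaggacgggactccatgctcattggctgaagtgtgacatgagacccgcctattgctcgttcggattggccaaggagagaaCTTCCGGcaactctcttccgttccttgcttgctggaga
Cox8b, chr7:140900447-140900696, minus strand: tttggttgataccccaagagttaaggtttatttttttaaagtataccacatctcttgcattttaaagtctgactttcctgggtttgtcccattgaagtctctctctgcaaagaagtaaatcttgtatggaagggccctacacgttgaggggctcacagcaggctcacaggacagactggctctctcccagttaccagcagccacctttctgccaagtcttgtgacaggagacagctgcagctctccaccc
A match is a description of these letters and does not show binding. The 13 genes with an NRF1 motif had a median difference between the days of −0.01 log2 and the 60 without it a median of 0.01. With the ETS motif (13 genes) the median was 0.03, and without it (60 genes) −0.01.

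The comparison of day 15 with day 0 asked whether transcripts of these subunits change as the cells take on the cartilage programme. No member changed past the test: of 89 genes 0 had a limma adjusted p below 0.05, while 1.72% of all 19938 genes did (1.3% higher and 0.411% lower at day 15). At an unadjusted limma p below 0.05 there were 2 members, Ndufaf3 and Cox7b2, or 2.25% of them, against 12.2% of all genes. Both were higher at day 15, as were 7.38% of all genes at that p, and 0 members were lower, against 4.78% of all genes. The median difference, day 15 minus day 0, was 0.01 log2 over the members and 0.02 log2 over all genes, and 46 members (51.7%) lay above 0 and 43 below, against 53.2% of all genes above 0. The interquartile range of the differences ran from −0.10 to 0.10 log2 for the members and from −0.14 to 0.19 for all genes. A difference of over 0.5 log2 was seen in 3 members (3.37%) and in 13.8% of all genes. Differences are on the scale of log2 intensity plus 1 after quantile normalization. In such RNA of whole cultures fewer cells of a type and less RNA per cell cannot be told apart, and a change of all transcripts per cell would not be seen.

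For most members the intervals lay within a 2-fold limit, but they were wide beside the differences themselves. The median size of a difference was 0.10 log2, below the median standard error. The 95% interval of the difference lay wholly within 1 log2 of 0, that is within a 2-fold change either way, for 83 of 89 members. The same held for 81.1% of all genes. The exceptions were Cox7a1, Cox8b, Cox8c, Ndufaf3, Ndufaf4 and Ndufaf6. Each interval is for 1 gene, was not adjusted for the number of genes, and rests on limma's moderated standard error, which was 0.16 to 0.40 log2 over the members with a median of 0.18.

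**Figure D1:**
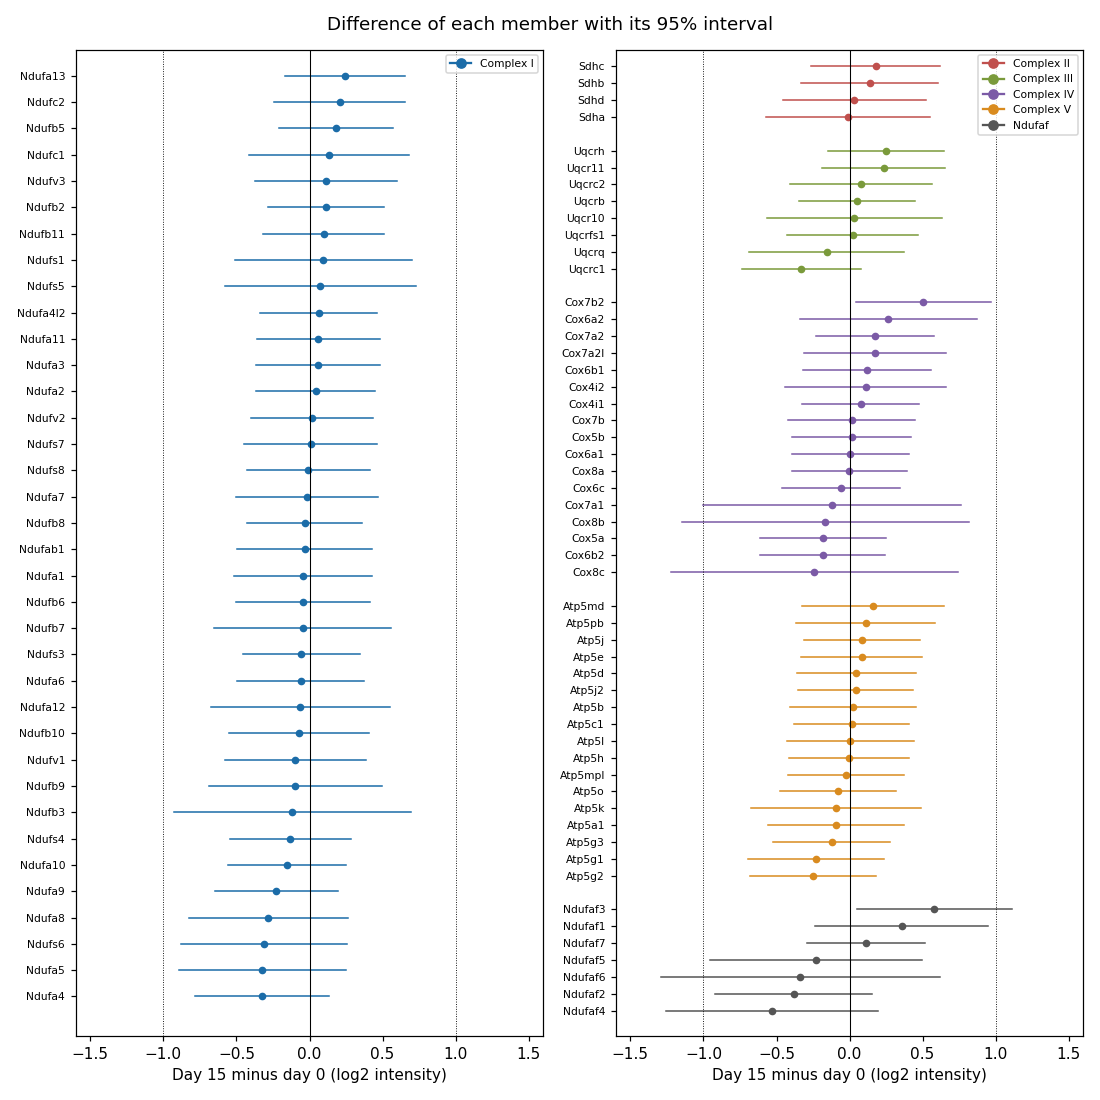
Difference between day 15 and day 0 in log2 intensity for each of the 89 members, with the 95% interval of limma's moderated standard error as a line; colours mark the complex, and dotted lines mark 1 log2 either way. For 83 members the whole line lies between the dotted lines, and the 2 whose lines do not reach 0 are Cox7b2 and Ndufaf3.

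The groups did not overlap, with both day 15 arrays on 1 side of both day 0 arrays, for 13 members that were higher (14.6%) and 12 that were lower (13.5%) at day 15. Together these were 28.1% of the members. Among all genes it was 22.3% higher and 17.8% lower, or 40.1% together. The split depended on the scaling: it was 17 higher and 8 lower on the deposited scaling, and 6 higher and 11 lower with each array centred on its median. In the other 64 members the days overlapped. The median size of the difference between the days was 0.10 log2 over the members, while the median gap between the 2 arrays of a day was 0.15 at day 15 and 0.17 at day 0.

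Complex I, the NADH dehydrogenase, was the most numerous group, with a median of −0.03 log2 and differences from −0.33 to 0.24. Of its 36 genes 15 lay above 0 and 21 below. The subunits that carry its flavin and iron-sulfur clusters, and the core subunit Ndufs3, stayed close to 0. Ndufv1, which binds the flavin that takes electrons from NADH, had 12.32 and 11.94 log2 intensity at day 15, against 12.27 and 12.19 at day 0. Ndufs1, the largest iron-sulfur subunit, had 11.49 and 11.00 at day 15, against 11.35 and 10.95 at day 0. In both genes the days overlapped, and replicate 1 was brighter than replicate 2 on each day. Ndufv2, an iron-sulfur subunit beside Ndufv1, differed by 0.02 ± 0.17 log2 (SE). Ndufs3, Ndufs7 and Ndufs8, which lie where the chain hands electrons to coenzyme Q, differed by −0.06 ± 0.16, 0.01 ± 0.19 and −0.01 ± 0.17 log2.

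Among accessory subunits of complex I the highest difference was that of Ndufa13, also known as GRIM-19. It had 12.35 and 12.20 log2 intensity at day 15, against 12.06 and 12.00 at day 0, so the days did not overlap, but the difference of 0.24 ± 0.17 (SE) did not pass (limma adjusted p = 0.710). Ndufc2, of the membrane arm, had 13.32 and 13.02 at day 15, against 13.00 and 12.93 at day 0. The days did not overlap, and the difference of 0.21 log2 was smaller than the gap of 0.29 between the day 15 arrays (limma adjusted p = 0.809). The lowest was Ndufa4, first taken for a complex I subunit and now placed in complex IV, with 11.96 and 11.77 at day 15, against 12.33 and 12.06 at day 0. The difference of −0.33 ± 0.19 log2 did not pass (limma adjusted p = 0.611), although both replicate numbers gave it, at −0.37 and −0.29. Ndufa5, of the matrix arm, differed by −0.32 ± 0.23 log2 with overlapping days. Ndufa4l2, the paralogue of Ndufa4 that is induced by hypoxia in other cells, had 7.51 and 7.41 at day 15, against 7.41 and 7.38 at day 0. Its arrays were all below the median level of all genes, 8.72, where values may lie at background.

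Complex II, the succinate dehydrogenase, is also an enzyme of the citric acid cycle and is encoded by the nucleus alone. All 4 of its genes were measured and in all 4 the days overlapped, as they did in 11939 of all 19938 genes. The median difference was 0.08 log2. Sdha, the flavoprotein that oxidises succinate, had 12.49 and 12.11 log2 intensity at day 15, against 12.51 and 12.10 at day 0. In this gene the replicate numbers differed on each day and the days nearly coincided, with a difference of −0.01 ± 0.23 (SE). Sdhb, the iron-sulfur subunit, differed by 0.14 ± 0.19 log2. The membrane anchors Sdhc and Sdhd differed by 0.18 ± 0.18 and 0.03 ± 0.20 log2.

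Complex III, the cytochrome bc1 complex, had a median of 0.04 log2 over 8 genes. The days did not overlap for 4 of these, and for 40.1% of all genes. Uqcrc1, a core subunit, had 12.20 and 12.23 log2 intensity at day 15, against 12.62 and 12.48 at day 0. Both day 15 arrays lay below both day 0 arrays, and the difference of −0.33 ± 0.16 (SE) had the smallest adjusted p of the complex but did not pass (limma adjusted p = 0.534). Uqcrc2, the other core subunit, had 12.72 and 12.33 at day 15, against 12.48 and 12.42 at day 0, so its days overlapped. Uqcrfs1, the Rieske iron-sulfur protein that passes electrons to cytochrome c1, differed by 0.02 ± 0.18 log2. Uqcrh, the hinge protein, had 12.51 and 12.44 at day 15, against 12.20 and 12.25 at day 0, a difference of 0.25 ± 0.16 with no overlap (limma adjusted p = 0.681). The small subunit Uqcr11 differed by 0.23 ± 0.17 log2, also with no overlap, and the small subunit Uqcrq by −0.16 ± 0.21 with overlap.

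Complex IV, the cytochrome c oxidase, is the complex whose subunits come in tissue isoforms, and its 17 genes had a median of 0.01 log2. Its widely expressed subunits differed little. Cox8a had 13.40 and 13.34 log2 intensity at day 15, against 13.38 and 13.36 at day 0. Cox6a1 differed by 0.01 ± 0.16 (SE), Cox7b by 0.01 ± 0.18 and Cox6b1 by 0.12 ± 0.18 log2. Cox7a2 had 12.53 and 12.46 at day 15, against 12.26 and 12.39 at day 0, which did not overlap and gave 0.17 ± 0.16. Cox5a went the other way, also with no overlap, by −0.18 ± 0.17. Cox7a2l, a factor that joins complexes III and IV, differed by −0.10 within replicate 1 and 0.44 within replicate 2.

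The subunit 4 isoforms are known to exchange under low oxygen in other cells, with Cox4i2 replacing Cox4i1. Cox4i1 had 12.16 and 12.28 log2 intensity at day 15, against 12.17 and 12.13 at day 0. Cox4i2 had 10.03 and 10.39 at day 15, against 9.90 and 10.29 at day 0. Both genes overlapped between the days, with differences of 0.07 ± 0.16 and 0.11 ± 0.22 (SE), and the 95% interval ran from −0.33 to 0.48 for Cox4i1 and from −0.44 to 0.66 for Cox4i2.

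Isoforms of heart and skeletal muscle differed more between the replicate numbers than between the days. Cox8b had 8.28 and 9.05 log2 intensity at day 15, against 8.35 and 9.32 at day 0. Cox7a1 had 7.59 and 8.32 at day 15, against 7.68 and 8.48 at day 0. In both genes replicate 2 was the brighter array on each day, by 0.73 to 0.97 log2, while the days differed by −0.17 ± 0.40 and −0.12 ± 0.36 (SE). The testis isoform Cox8c had the same layout, with 7.72 and 8.60 at day 15, against 7.97 and 8.84 at day 0. No other member differed by over 0.5 log2 between the replicate numbers in the same direction on both days. The other muscle isoform, Cox6a2, had 8.97 and 9.14 at day 15, against 8.48 and 9.10 at day 0, with overlap. Of the 10 macrophage markers 8 ran the other way, brighter in replicate 1 on both days, while Ptprc and Adgre1 were brighter in replicate 2. The osteoblast marker Dmp1 was also brighter in replicate 2, with replicate 1 minus replicate 2 at −1.69 log2 at day 15 and −1.65 log2 at day 0. The part of these markers in the gaps was not tested.

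Of the other testis isoforms, Cox7b2 had 6.56 and 6.89 log2 intensity at day 15, against 6.24 and 6.20 at day 0. Both day 15 arrays were higher, and the difference of 0.50 ± 0.19 (SE) was the largest among the subunits, but it did not pass (limma adjusted p = 0.364). Cox6b2 had 7.84 and 7.93 at day 15, against 7.97 and 8.17 at day 0, a difference of −0.19 ± 0.17. Cox7b2, Cox6b2, Cox8c, Cox7a1 and Ndufa4l2 were the subunits below the median level of all genes, where values may lie at background.

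Complex V, the ATP synthase, had the narrowest range of differences among complexes I, III, IV and V, from −0.25 to 0.16 log2 over 17 genes, with a median of 0.01. Atp5b, the beta subunit that holds the catalytic sites, had 13.72 and 13.51 log2 intensity at day 15, against 13.67 and 13.53 at day 0. Atp5a1, the alpha subunit, differed by −0.09 ± 0.19 (SE), and Atp5c1, the gamma subunit of the central stalk, by 0.01 ± 0.16. The days overlapped in all 3. The genes with the highest differences, Atp5md and Atp5pb of the membrane part, stood at 0.16 ± 0.20 and 0.11 ± 0.19 log2 with overlapping days.

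Atp5g1, Atp5g2 and Atp5g3 encode the same mature protein of the rotating c-ring and differ in the targeting peptide. They were the genes with the lowest differences of complex V. Atp5g2 had 12.63 and 12.84 log2 intensity at day 15, against 12.92 and 13.05 at day 0. Atp5g1 had 12.91 and 13.11 at day 15, against 13.11 and 13.38 at day 0, and Atp5g3 had 12.57 and 12.48, against 12.61 and 12.68. The differences were −0.25 ± 0.17, −0.23 ± 0.19 and −0.12 ± 0.16 (SE), with the days apart for Atp5g2 and Atp5g3 and overlapping for Atp5g1. None passed (limma adjusted p = 0.725 to 0.904).

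**Figure D2:**
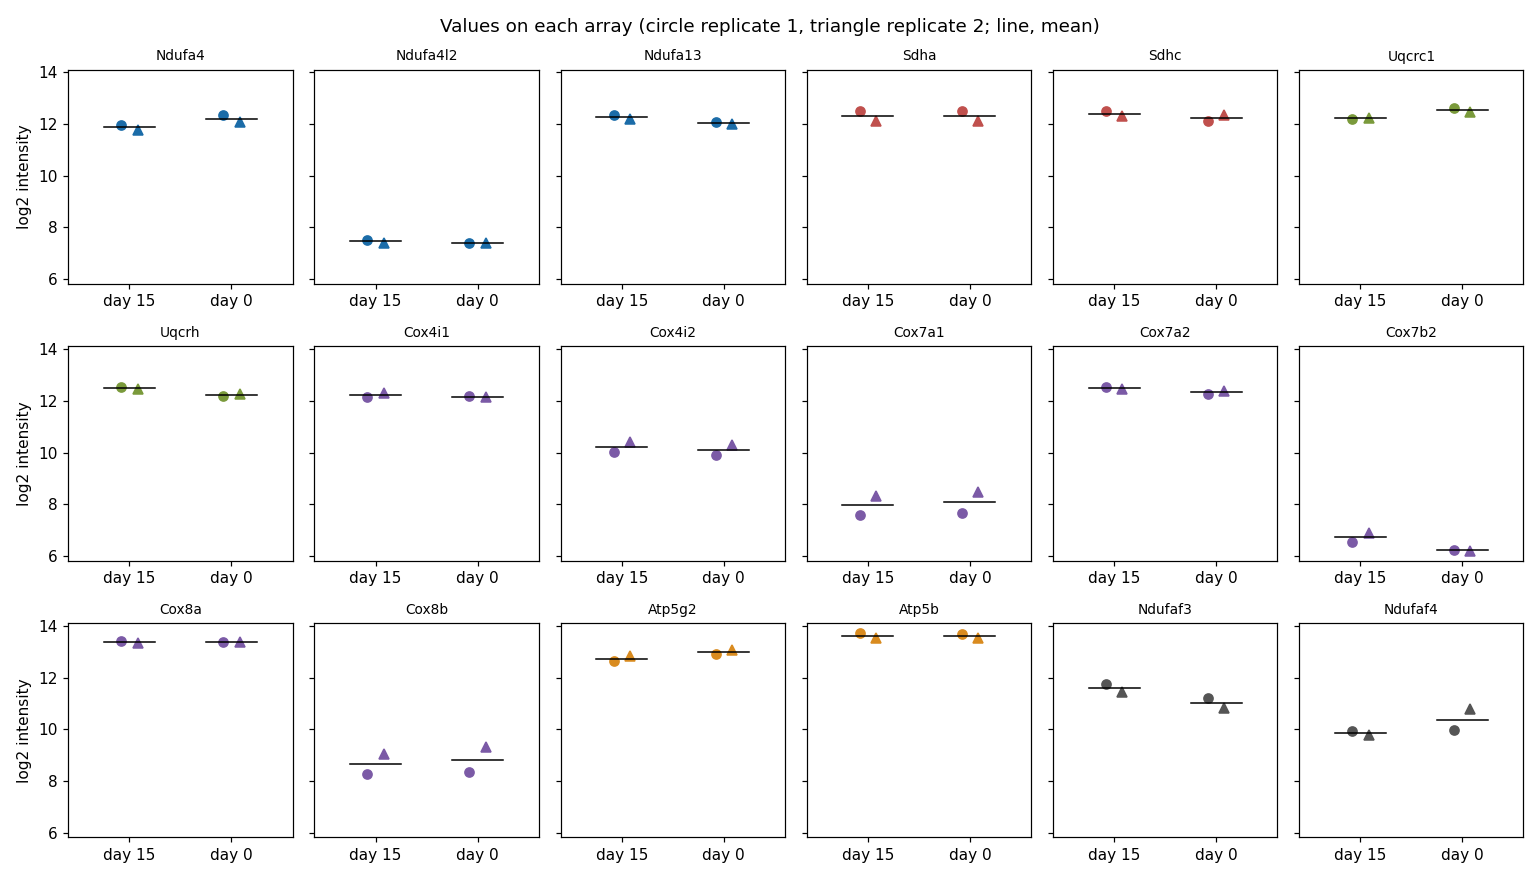
Log2 intensity of 18 members on each array after quantile normalization, with day 15 left of day 0; circles are replicate 1, triangles replicate 2, and lines the mean of 2 arrays. The days lie level for most genes shown, while for Cox7a1 and Cox8b the triangles lie above the circles on both days.

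The Ndufaf assembly factors of complex I spread more widely than the subunits, from −0.53 to 0.58 log2 over 7 genes. Their median was −0.23, with 0.14 within replicate 1 and −0.49 within replicate 2. The median SE was 0.24 log2 over these genes and 0.18 over the subunits. A list of 41 other assembly factors of the respiratory chain also ran widely, from −0.50 to 0.94. NDUFAF3 and NDUFAF4 are known from human cells to act as a pair early in assembly. Ndufaf3 had 11.74 and 11.44 log2 intensity at day 15, against 11.20 and 10.82 at day 0. Ndufaf4 had 9.92 and 9.77 at day 15, against 9.96 and 10.79 at day 0. The first was higher at day 15 within both replicate numbers, by 0.54 and 0.62, and its difference of 0.58 ± 0.22 (SE) was the largest of all members but did not pass (limma adjusted p = 0.364). The second had a difference of −0.53 ± 0.29 (limma adjusted p = 0.602), which was −0.04 within replicate 1 and −1.02 within replicate 2. Without day 0 replicate 2, the array that stood apart in Ndufaf4, the difference was −0.11. Ndufaf2, a factor of late assembly, had −0.03 within replicate 1 and −0.74 within replicate 2. Ndufaf6 differed by 0.17 and −0.85 within the replicate numbers, and Ndufaf1, an early factor, by 0.76 and −0.05. Ndufaf5 and Ndufaf7, the remaining assembly factors, differed by −0.23 ± 0.29 and 0.11 ± 0.16 log2. The mean levels of Ndufaf5 and Ndufaf6, 8.67 and 8.44, lay below the median level of all genes, 8.72, where values may lie at background.

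Within the replicate numbers the members went opposite ways by a small margin. The median difference was 0.06 log2 within replicate 1, where 56 of 89 genes lay above 0, and −0.05 within replicate 2, where 29 did. Over all genes these medians were 0.04 and 0.00, and 11004 and 10085 of the 19938 genes lay above 0. Complex I had 0.10 within replicate 1 and −0.11 within replicate 2, and complex II had 0.16 and −0.01. Complex III had 0.08 and 0.00, complex IV had 0.02 and −0.05, and complex V had 0.04 and −0.02. Both numbers gave a higher value at day 15 for 22 members (24.7%) and a lower one for 26 (29.2%). Among all genes it was 34.1% and 28.2%. The widest disagreement among the subunits was that of Ndufb3, an accessory subunit of complex I, at 0.40 and −0.64.

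**Figure D3:**
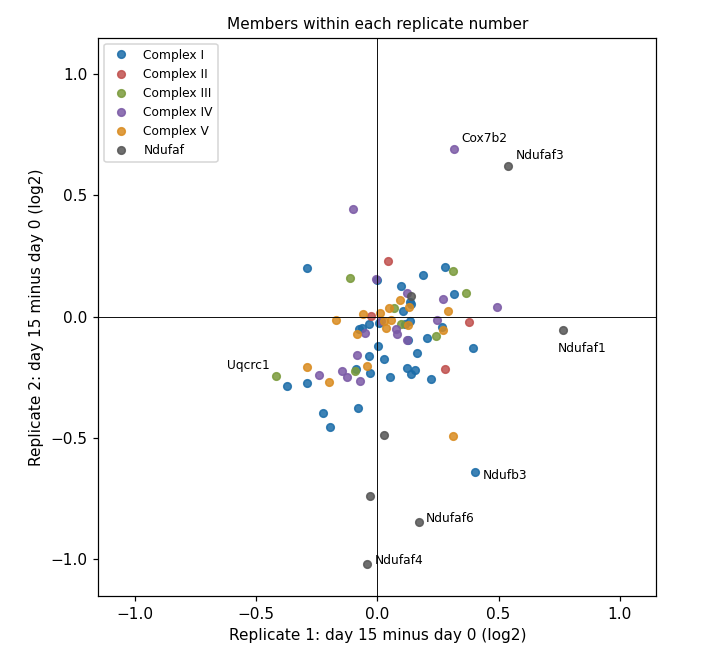
Difference between day 15 and day 0 in log2 intensity of each member within replicate 1 (horizontal) and within replicate 2 (vertical), coloured by complex. Most members lie within 0.5 log2 of 0 on both axes, and Ndufaf3 and Cox7b2 stand apart toward the upper right.

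Where a gene had several probe sets (17 members) they gave nearly the same difference. The widest range within a gene was 0.10 log2, for Atp5l with 6 probe sets, and the sign differed within 3 genes whose differences were close to 0. Several of these genes have processed copies elsewhere in the genome, and whether the probe sets tell them apart was not examined. Of mitochondrial DNA, 2 protein genes were on the array with a symbol, and they were looked up after the other values were seen. COX2, a copper-binding subunit of complex IV, had 13.05 and 13.48 log2 intensity at day 15, against 13.42 and 13.36 at day 0. ND3, a membrane subunit of complex I, had 13.24 and 13.25, against 13.24 and 13.27. Neither passed (limma adjusted p = 0.936 and 0.995).

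Of the regulators of mitochondrial biogenesis 1 was called. Ppargc1a encodes PGC-1alpha, the coactivator known for driving mitochondrial biogenesis through NRF1, GABP and the estrogen-related receptors. It had 8.62 and 9.27 log2 intensity at day 15, against 7.09 and 6.92 at day 0. Both day 15 arrays lay well above both day 0 arrays. It rose by 1.94 ± 0.26 log2 (SE; limma adjusted p = 0.0297), a measured 3.84-fold, with 1.52 within replicate 1 and 2.36 within replicate 2. The call was lost when day 15 replicate 2 was left out (limma adjusted p = 0.0555), as it was for replicate 1 (0.0503) and replicate 2 (0.0762) of day 0, and the difference was 1.61 to 2.27 log2 when 1 array was left out. Both day 0 values lay below the median level of all genes, 8.72, as did day 15 replicate 1 at 8.62. Values there may lie at background, so the measured fold may be no more than a lower bound.

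Its partners, its target Tfam and the related coactivators did not pass. Nrf1, the factor whose motif was counted above, had 10.33 and 10.21 log2 intensity at day 15, against 10.69 and 10.35 at day 0. Gabpa, the ETS subunit of GABP, differed by 0.19 ± 0.22 (SE), and Esrra, the receptor ERRalpha, by −0.12 ± 0.16. Tfam, which packages and transcribes mitochondrial DNA, had 9.49 and 9.41 at day 15, against 9.51 and 9.61 at day 0. The related coactivators Ppargc1b and Pprc1 differed by −0.02 ± 0.20 and −0.83 ± 0.24 log2 (limma adjusted p = 0.992 and 0.232). In all, 1 of 23 regulators of mitochondrial biogenesis was called higher, none was called lower and 22 were not called. The median was −0.12 log2 (−0.02 within replicate 1 and −0.13 within replicate 2). Both day 15 arrays lay below both day 0 arrays for 11 of the 23 and above them for 5. Among all genes it was 17.8% below and 22.3% above.

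Other genes of respiration were read from lists of gene names. Of 41 assembly factors outside the Ndufaf group 0 were called by limma, with a median of 0.03 log2 (0.18 within replicate 1 and −0.11 within replicate 2). Higd1a, a protein that binds complex IV and is induced by hypoxia in other cells, had the largest difference there, 0.94 ± 0.24 (SE; limma adjusted p = 0.176), with 10.73 ± 0.22 at day 15 and 9.79 ± 0.36 at day 0 (SD, n = 2 arrays each). Of 18 genes of the citric acid cycle and pyruvate dehydrogenase 0 were called, with a median of −0.11 (−0.12 and −0.09 within the replicate numbers), and the largest difference was −0.34 ± 0.19 for Suclg1, a subunit of succinyl-CoA ligase. Of 12 genes of coenzyme Q synthesis 0 were called, with a median of 0.01 (0.21 and −0.15 within the replicate numbers). Coq8a, an atypical kinase of that pathway, differed by 0.94 ± 0.35 log2 (limma adjusted p = 0.359). Of 11 ADP/ATP and phosphate carriers, porins, uncoupling proteins and mitochondrial creatine kinases 0 were called, with differences from −0.13 to 0.17. Cyc1, Cycs and Atpif1, which encode cytochrome c1, cytochrome c and the inhibitor of the ATP synthase, differed by −0.09, −0.04 and 0.17 log2.

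**Figure D4:**
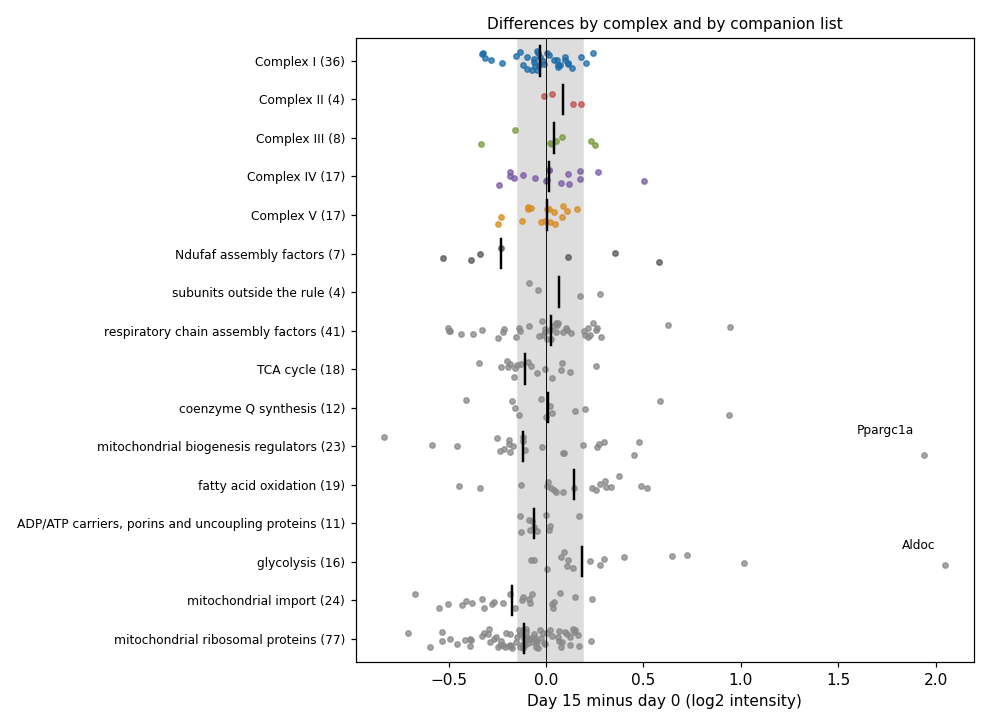
Differences between day 15 and day 0 in log2 intensity for each gene, with members by complex in colour and the companion lists in grey; the number of genes stands in brackets, short black lines are medians, and the shaded band is the interquartile range of all genes (−0.14 to 0.19). Medians of complexes I to V lie within the band, and Ppargc1a is the called gene among those shown.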

How the data were processed

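The deposited table holds 1 processed intensity per probe set and array on a linear scale, from 0.72 to 23103, as judged from the values. How the authors corrected background, summarized probes and scaled these deposited intensities is, in the sources used here, not given; mm9 is the build named in the submitters' processing notes. No detection call was used. Of 35512 probe sets 21789 had 1 symbol, 1621 several and 12102 none, and 21698 of the 21789 matched the gene table (GRCm38.p6).

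Intensities were turned to log2 after adding 1 and, since the array medians differed by 0.20 log2, quantile normalized over all probe sets. All 19938 genes were fitted with limma 3.58.1 in R 4.3.3 (group as the only term, all 4 arrays), with Benjamini-Hochberg adjustment over all genes. The procedure was also run on simulated data with independent noise on each array. That run does not speak to the correlated gaps between replicates described below. Lists are described by counts and medians, with no set test. Members, lists and tests were chosen with earlier results of these data known. Named were members at each end of a complex by difference, the catalytic core, tissue isoforms, Ndufaf genes, called or most different companion genes and 6 fixed regulators. Ndufb3, Cox5a, Atp5h, Atp5l, COX2, ND3, Cycs and Cyc1 were named after their values were seen. Alternatives were other scalings, a pseudocount of 16, limma with an intensity trend and robust priors, a filter at the median level, the mean of a gene's probe sets, the replicate number as a block, subunits only, updated symbols and leaving out each array. Python 3.11.15 with matplotlib 3.10.9 made the figures.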

Additional observations from a re-analysis of the deposited data

How the results depend on the processing

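In each of the 11 other fits 0 of the members were called by limma, with 0 to 4 at an unadjusted p below 0.05, and restricting the members to the 82 subunits or applying the names to updated symbols too gave 0 as well. The median difference of the members ran from −0.04 log2 without day 0 replicate 1 to 0.06 without day 0 replicate 2, and the medians of the 5 complexes from −0.08 to 0.22. Median centring turned the sign for complexes IV and V, and the other complexes kept theirs under both other scalings. The sign of each complex turned when at least 1 of the arrays was left out. When 1 array was left out, 16 to 23 members changed sign, none with a difference over 0.34 log2, and the array left alone was taken to have the spread of the remaining pair. Other scalings turned the sign of 6 or 7 members, all under 0.05 log2. The number of members whose days did not overlap was 6 higher with median centring. With 1 array left out, which makes separation easier by construction, it was 22 to 36 higher and 17 to 40 lower. These counts and the values within a replicate number rest on single arrays and were not computed with the replicate block or the trend. With the replicate number as a replicate block 0 members were called and 628 of all genes, against 342 without it, and the median difference stayed at 0.01 log2. The gaps between replicates of the 2 days correlated at 0.40 across all genes and 0.59 across the members, but no label says that a number marks a shared culture, so this is a hint only. With 2 arrays per day the standard error of a member's difference was 0.18 log2 in the median, which limits what a single gene can show.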

Other observations

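Among the other mitochondrial lists, the protein subunits of the mitochondrial ribosome lay mostly below 0: of 77 genes 59 were lower and 18 higher at day 15, with a median of −0.11 log2, against 0.02 over all genes, and 0 were called by limma. This tilt lay in replicate 2, where 69 of the 77 were below 0 (median −0.27), while within replicate 1 it was 39 of 77 (median −0.00). Mrps18b had the largest difference there, −0.71 ± 0.18 log2 (SE; limma adjusted p = 0.175). Of 24 genes of mitochondrial protein import 18 were lower, with a median of −0.17 (−0.06 within replicate 1 and −0.23 within replicate 2), and 0 were called. Timm8a1, a chaperone of the intermembrane space, differed by −0.67 ± 0.17 log2 (limma adjusted p = 0.185). Of 19 genes of fatty acid oxidation 16 were higher, with a median of 0.14 (0.27 within replicate 1 and 0.07 within replicate 2), and 0 were called. Of 16 glycolysis genes 14 were higher, with a median of 0.18 (0.25 within replicate 1 and 0.12 within replicate 2), and 0 were called. Aldoc, an aldolase, had 11.40 and 10.55 log2 intensity at day 15, against 9.58 and 8.27 at day 0 (limma adjusted p = 0.153). Genes of a list are not independent of each other, and these counts carry no test.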
